A study of Mus musculus with 12 samples.

Results

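The genes described here are 36 members of the apoptosis and necroptosis machinery, 24 that promote cell death, 10 that promote survival and 2 of the p53 axis. They were taken as the Ensembl rows of the expression table whose mouse symbol is on the list, 36 of the 55092 features in the table, and each had 1 row. Abdominal aorta RNA from 12 male mice was sequenced, 1 library per mouse, with 3 mice in each of 4 groups. CCN2SMCΔ mice carry floxed Ccn2 alleles and Myh11-Cre-ERT2, a tamoxifen-activated Cre driven by a smooth muscle myosin promoter, and CCN2fl/fl controls carry the floxed alleles without Cre. Every mouse, controls included, received 5 doses of tamoxifen at 8 weeks of age and a washout of 2 weeks, and then an osmotic pump for 7 days that delivered saline or 500 ng/kg/min of angiotensin II (Ang II). The groups are called CFS (CCN2fl/fl, saline), CSS (CCN2SMCΔ, saline), CFA (CCN2fl/fl, Ang II) and CSA (CCN2SMCΔ, Ang II). Loss of Ccn2 is restricted to cells that used the Myh11 promoter, so the other cells of the wall keep the gene, and because the controls lack Cre the deletion and the presence of Cre cannot be told apart.

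Apoptosis is executed by caspases, proteases that are switched on either through death receptors at the cell surface or through release of cytochrome c from mitochondria. The mitochondrial route is governed by the Bcl-2 family, in which BH3-only proteins neutralize survival proteins such as BCL2 and MCL1, and BAX and BAK1 form the pores that release cytochrome c. Necroptosis is a lytic death that follows from death receptor or nucleic acid sensing when RIPK3 phosphorylates MLKL, and caspase-8 restrains it. In the aortic wall, loss of smooth muscle cells by such routes is a recognized feature of aneurysm, and leukocytes that enter the wall express many of the same genes.

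Values are FPKM, fragments scaled to exon length and to a library size, which allow levels to be set beside each other between genes. That size was not the depth alone, since the recovered fragments were 0.902 to 0.95 times it in CSA and 0.986 to 1.08 times it in the other groups, and how it was set is not given in the sources used here. Differences are log2 fold changes of FPKM + 0.1 from limma, fitted over all 12 libraries and 14676 tested genes with Benjamini-Hochberg adjustment. A gene is said to have risen or fallen when its adjusted p was under 0.05, and to have passed both thresholds when its log2 fold change was also beyond 1.5 in size. Library depth lay between 14558580 and 23107811 fragments, the lowest being CSA mouse 03.

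CSA mouse 03 stood apart from the other CSA mice in a way that followed base composition, and this touches several members. Across 14407 genes with a GC content, its deviation from the other CSA mice had a Spearman correlation of -0.66 with GC content, against 0.63 and 0.56 for CSA mice 01 and 02 and -0.22 to 0.20 for the 9 libraries of the other groups (a description across genes of 1 library). The values of CSA mice 01 and 02 are deviations from group mates that include mouse 03, so they are not independent of it. Genes with at most 40% GC were higher in mouse 03 by a median of 0.67 on the log2 scale, whereas those above 60% differed by -1.59. Of the 17 members above the median GC content of 50.0%, 15 were lower in mouse 03, with a median difference of -1.04, and of the 19 members at or below it 16 were higher, with a median of 0.51. The counts of members by adjusted p in comparisons that hold CSA are therefore also given without this mouse and with log2 values adjusted for GC content in each library, an alternative chosen after the data were seen.

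**Figure D1:**
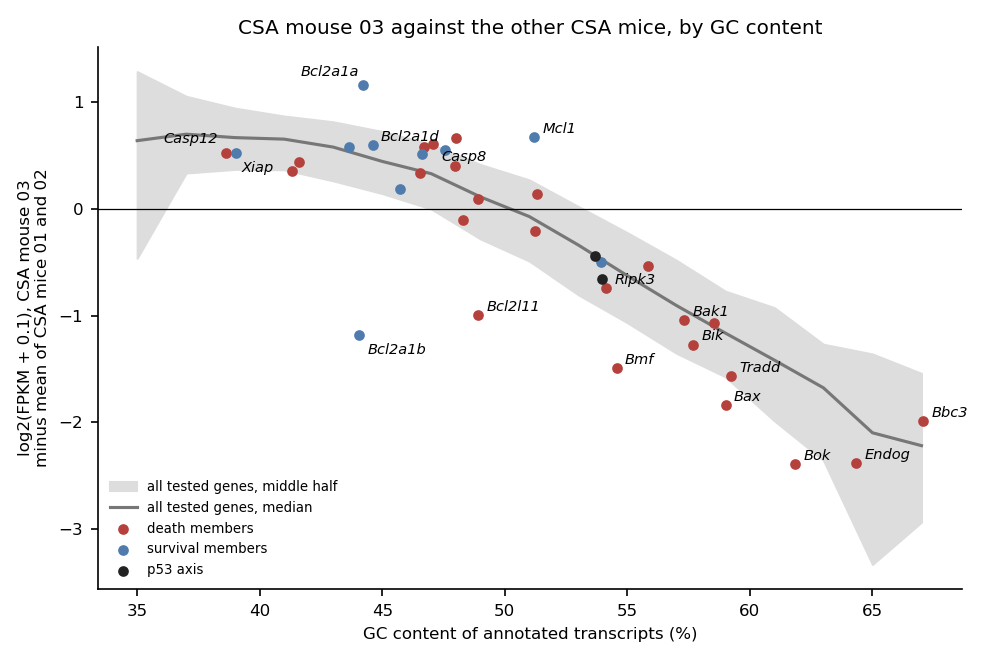
Difference in log2(FPKM + 0.1) between CSA mouse 03 and the mean of CSA mice 01 and 02 (vertical axis) against the GC content of each gene's transcripts in percent (horizontal axis), with 36 members as points and the median and interquartile range of all tested genes as line and band. GC-rich members such as Bok, Endog, Bbc3 and Bax lie far below 0, and most members under 50.0% GC lie above it.

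The targeted gene Ccn2 (ENSMUSG00000019997, chromosome 10, 24595442 to 24598683, mm10) measured 1013, 1105 and 564 FPKM in CFA mice 71, 72 and 74, and 255, 331 and 399 FPKM in CSA mice 01, 02 and 03. No CSA mouse reached the lowest CFA mouse. Its mean was 894 ± 289.7 in the former and 328 ± 71.9 in the latter (SD, n = 3 each), and it fell by 1.41 on the log2 scale (standard error 0.34, limma adjusted p = 0.00622). The two-sided exact permutation test gave p = 0.1, the smallest value that 3 mice against 3 allow. Under saline CFS mice averaged 766 ± 317.9 FPKM and CSS mice 554 ± 105.9 (SD, n = 3 each), the values overlapped, and the log2 fold change of -0.40 had an exact permutation p of 0.4. Another gene model covers 23.2% of the exonic bases of Ccn2.

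Under Ang II, several death genes and several survival genes were higher in CSA than in CFA. Between these groups 9 of the 36 members rose past both thresholds, against 8.95% of all tested genes, and 0 fell, against 8.27%. Of the 9, 5 (Bcl2l11, Pmaip1 and the 3 Bcl2a1 genes) entered the test only because they exceeded 1 FPKM in the CSA libraries, so that their inclusion already required a difference. Of the other 31 members 4 rose past both thresholds, against 4.54% of the 13470 genes that entered the test without the CSA libraries. The 9 were the caspase gene Casp8, the BH3-only genes Pmaip1, Bcl2l11 and Bid, the necroptosis pair Ripk3 and Mlkl, and the survival genes Bcl2a1a, Bcl2a1b and Bcl2a1d. By adjusted p alone, 17 members rose (19.5% of all tested genes did) and 1 fell (21.2% did), and at an unadjusted p under 0.05 the numbers were 19 and 3 among 7184 of all tested genes (25 and 3 among 8093 without CSA mouse 03, 25 and 4 among 7899 of 14407 with GC content adjusted). The median log2 fold change of the members was 0.45, beside -0.04 over all tested genes. It was 0.70 without CSA mouse 03, beside 0.01, and 0.70 with GC content adjusted, beside 0.03.

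Death and survival members were taken apart. Beside shares of 19.5% up and 21.2% down over all tested genes, 11 of the 24 death members rose and 0 fell by adjusted p, 6 of the 11 past both thresholds, with a median log2 fold change of 0.42. Of the 10 survival members 6 rose, 3 of them past both thresholds, and 1 fell, with a median of 0.73 that became -0.02 over the 7 survival members other than the Bcl2a1 genes. The 2 genes of the p53 axis did not pass. Both without CSA mouse 03 and with GC content adjusted, 16 death members rose and 1 fell, 6 survival members rose and 2 fell, and both genes of the p53 axis rose, and without that mouse the median of the 7 survival members was 0.03. The median of the 24 death members was 0.82 without that mouse and 0.78 with GC content adjusted. That of the 10 survival members was 0.52 and 0.72, so the order of the 2 medians turned with the setting. Both medians include members that entered the test through CSA alone, Pmaip1 and Bcl2l11 among the death members and the Bcl2a1 genes among the survival members. Nothing is read from the order of the 2 medians. Of the 31 members that entered the test without the CSA libraries, 12 rose and 1 fell by adjusted p, against 15.5% and 23.1% of the 13470 such genes. Without CSA mouse 03, and likewise with GC content adjusted, 19 of the 31 rose, 3 fell and 4 passed both thresholds. Of all such genes 20.4% rose and 27.1% fell without that mouse, 4.81% rising past both thresholds, and 21.5% and 25.3% did with GC content adjusted, with 4.9% past both.

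Without CSA mouse 03 the same 9 members passed both thresholds (9.0% of all tested genes rose and 7.23% fell past them), while 24 members rose by adjusted p alone (23.8% of all tested genes did) and 3 fell (24.9% did). The 24 held all 17 of the fit with 12 libraries and added Bad, Bax, Bbc3, Bok, Cdkn1a, Tradd and Trp53, and those that fell were Bcl2, Cflar and Endog. Adjustment for GC content with all 12 libraries retained gave the same 24 and the same 3 members, against 25.2% and 23.4% of all genes with a GC content, and the same 9 past both thresholds, against 9.18% up and 7.42% down.

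**Figure D2:**
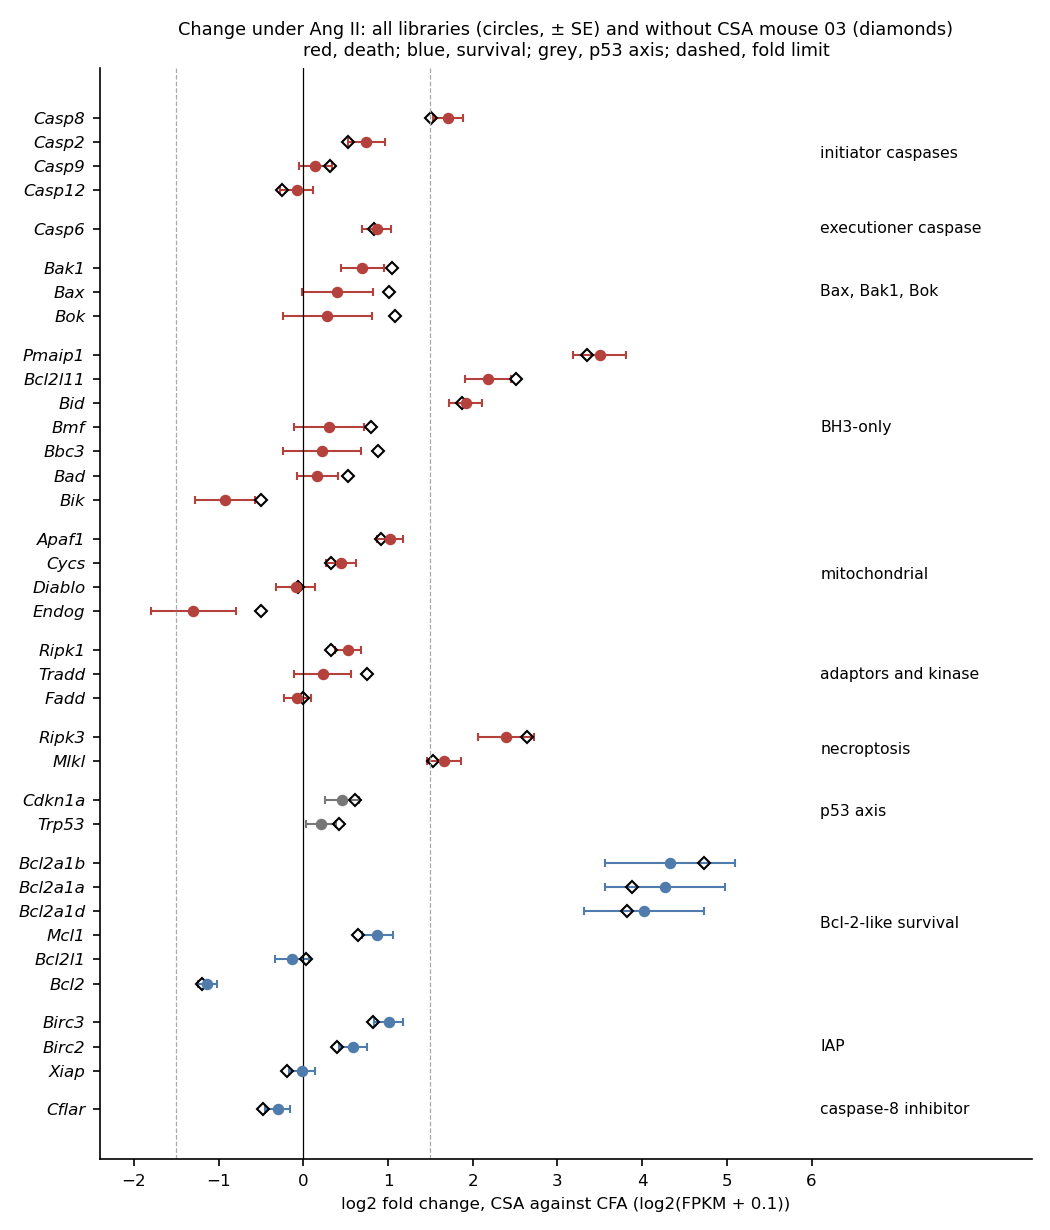
Log2 fold change of each member between CSA and CFA (horizontal axis), grouped by role, as circles with standard errors for all 12 libraries and as open diamonds without CSA mouse 03, with dashed lines at the fold limit of 1.5. The 3 Bcl2a1 genes and Pmaip1 lie farthest to the right, Bcl2 lies at -1.13, and the diamonds of Bax, Bok, Bbc3, Bad and Tradd lie well to the right of their circles.

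The makeup of the tissue moved with these differences. Summed FPKM of 8 smooth muscle markers ran from 5466 to 8323 in CFA and from 793 to 937 in CSA, and 8 of 8 fell past both thresholds. Summed FPKM of 10 macrophage markers ran from 333 to 708 in CFA and from 2405 to 2624 in CSA, and 10 of 10 rose, of which Itgam entered the test through CSA alone. The 8 neutrophil markers summed to between 11.1 and 28.0 FPKM in CFA and between 519 and 566 in CSA, while Ly6g stayed under 1 FPKM in every group. Of the 7 tested, Camp, Cxcr2, Mmp8 and Retnlg entered the test through CSA alone, and the other 3 (Csf3r, S100a8 and S100a9) rose. The 8 T cell markers summed to between 1.06 and 2.69 FPKM in CFA, where each was under 1 FPKM, and to between 28.2 and 40.1 in CSA. The 7 that were tested entered the test through CSA alone, so no count of calls is given for them. The 7 fibroblast markers summed to between 3117 and 3442 FPKM in CFA and between 5142 and 6099 in CSA, with 3 risen and 2 fallen. Summed endothelial markers ran from 192 to 426 FPKM in CFA and from 126 to 149 in CSA, with 1 of 7 risen and 3 fallen, and those of erythrocytes from 767 to 2496 and from 63.2 to 621, with 5 of 5 fallen. Markers of dividing cells summed to between 4.03 and 28.7 FPKM in CFA and between 36.3 and 46.5 in CSA, and those of B cells to between 1.36 and 2.77 and between 6.12 and 11.0, most of them genes that entered the test through CSA alone. Summed adipocyte markers ran from 89.7 to 258 FPKM in CFA and from 55.1 to 95.9 in CSA, with overlap. Those of skeletal muscle ran from 3.92 to 5.94 and from 2.71 to 4.51, also with overlap. In bulk tissue, fewer cells of a type and less RNA per cell cannot be told apart. The part of cell makeup in the members' differences was not tested.

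**Figure D3:**
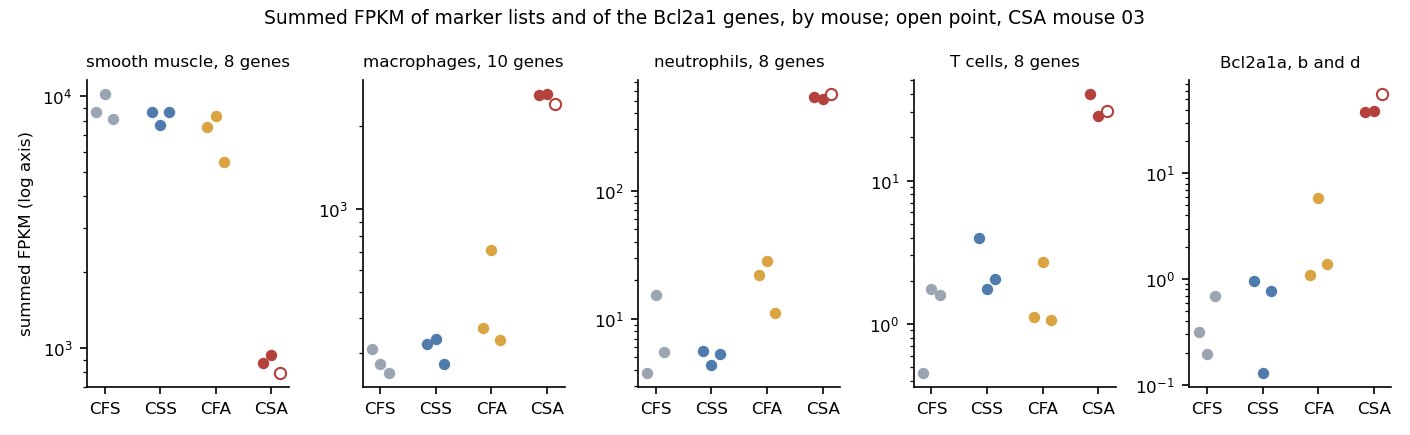
Summed FPKM (vertical log axes) of markers of smooth muscle cells, macrophages, neutrophils and T cells and of the 3 Bcl2a1 genes, 1 point per mouse, by group (horizontal axis). CSA mice lie below the other 9 mice for smooth muscle markers and above them in each of the other panels.

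Among the initiator caspases, Casp8 changed most. Casp8 (ENSMUSG00000026029, chromosome 1, 58795374 to 58847503) encodes the protease that death receptors recruit. It measured 7.03, 6.50 and 7.26 FPKM in CFS, 8.26, 7.14 and 6.72 in CSS, 8.35, 9.64 and 7.61 in CFA, and 23.6, 25.0 and 37.1 in CSA. Each CSA mouse stood above all 9 others, which lay close together. The rise from CFA to CSA was 3.35-fold in mean FPKM (log2 fold change 1.71, standard error 0.17, limma adjusted p = 2.37e-05, and 2.66e-07 to 0.00244 over its alternatives). Without CSA mouse 03 the log2 fold change was 1.51.

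The other initiators moved less. Casp2, whose product is activated by genotoxic and metabolic stress, rose from 3.12 ± 0.259 to 5.43 ± 1.58 FPKM (SD, n = 3 each, log2 fold change 0.74, limma adjusted p = 0.0175), a call that did not hold without CFA mouse 71 (0.0515) or 72 (0.0526), with only the groups compared (0.0576) or under treat, limma's test of changes beyond 1.2-fold (0.0751). Casp9, the initiator of the mitochondrial route, averaged 4.47 ± 0.915 FPKM under CFA and 4.95 ± 1.02 under CSA (SD, n = 3 each), and Casp12, a caspase tied to the endoplasmic reticulum, measured 19.0 ± 2.94 and 18.2 ± 4.13. Neither passed the test, with limma adjusted p of 0.597 for Casp9 and 0.781 for Casp12, and both changed sign under some alternatives. Casp6, the executioner caspase on the list, measured 2.10, 1.99 and 2.02 FPKM in CFA and 3.57, 3.84 and 3.97 in CSA, after 1.28 to 1.88 in CFS and 1.46 to 1.90 in CSS. Its CSA values did not overlap with those of any other group, and it rose by 0.87 on the log2 scale (standard error 0.17, limma adjusted p = 0.00203).

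The BH3-only genes, which sense damage and start the mitochondrial route, divided into 3 that rose and 4 that did not pass. Pmaip1 (ENSMUSG00000024521, chromosome 18, 66458533 to 66465565), whose product NOXA binds MCL1, measured 0.348, 0.323 and 0.438 FPKM in CFS, 0.488, 0.387 and 0.208 in CSS, 0.503, 1.02 and 0.802 in CFA, and 8.88, 8.18 and 11.6 in CSA. The lowest CSA mouse was far above the highest of the other 9. The mean rose 12.4-fold from CFA to CSA (log2 fold change 3.50, standard error 0.32, limma adjusted p = 1.18e-05). It rests on 30, 59 and 46 fragments under CFA and 493, 474 and 487 under CSA.

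Bcl2l11 (ENSMUSG00000027381, chromosome 2, 128126038 to 128162547) encodes BIM, which binds all survival proteins of the family and is a main mediator of leukocyte death. It measured 0.795, 0.666 and 0.729 FPKM in CFS, 0.851, 0.753 and 0.944 in CSS, 1.05, 0.963 and 1.14 in CFA, and 6.93, 6.02 and 3.19 in CSA. CSA mouse 03 was the lowest of its group and still above every other mouse. It rose by 2.18 on the log2 scale (standard error 0.27, limma adjusted p = 8.79e-05) and by 2.51 without mouse 03. Its GC content is 48.9%, and it was 1 of the 3 members at or below the median GC content that were lower in mouse 03, with a difference of -0.99.

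Bid (ENSMUSG00000004446, chromosome 6, 120891930 to 120916853) links the death receptor route to mitochondria, because caspase-8 cuts its product. It measured 1.55, 1.34 and 1.71 FPKM in CFS, 1.85, 1.16 and 1.48 in CSS, 1.58, 1.94 and 1.51 in CFA, and 6.05, 6.68 and 7.02 in CSA. The 3 CSA mice were close to each other and apart from the rest. It rose by 1.92 (standard error 0.19, limma adjusted p = 2.07e-05). Bcl2l13 overlaps 17.7% of its exonic bases, and reads of overlapping genes cannot be told apart in libraries that do not mark strand.

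The remaining BH3-only genes Bad, Bbc3, Bmf and Bik did not pass between CSA and CFA with 12 libraries, and their values in CSA were split by mouse 03. Bbc3, which encodes the p53 target PUMA and has the highest GC content of the members (67.1%), measured 4.80, 3.70 and 4.62 FPKM in CFA and 8.49, 7.75 and 1.97 in CSA. CSA mice 01 and 02 exceeded every CFA mouse and mouse 03 fell below them all. Its log2 fold change was 0.22 (limma adjusted p = 0.73) with 12 libraries, 0.88 (adjusted p = 0.0101 from limma) without mouse 03, and -0.14 without mouse 01. Bad, a growth factor sensor that shares 20.5% of its exonic bases with Gpr137, averaged 9.71 ± 0.325 FPKM under CFA and 11.5 ± 4.34 under CSA (SD, n = 3 each), and its log2 fold change went from 0.17 to 0.52 without mouse 03 (limma adjusted p = 0.0011). Bmf measured 4.53 ± 1.65 and 5.93 ± 2.93 FPKM, and Bik 3.11 ± 0.804 and 1.69 ± 0.752 (SD, n = 3 each), and neither passed with or without mouse 03. Bik did fall by adjusted p without CSA mouse 01 and without CSA mouse 02.

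The makeup of the BH3-only group by FPKM shifted with the genes that rose. Pmaip1, Bid and Bcl2l11 together made up 11.6% to 16.4% of the summed FPKM of the 7 BH3-only genes in CFA, 11.1% to 13.5% in CFS and 10.7% to 11.5% in CSS. In CSA their share was 40.5% in mouse 01, 39.8% in mouse 02 and 64.5% in mouse 03. In mouse 03 Bad, Bbc3, Bmf and Bik were each lower than in mice 01 and 02, Bbc3 at 1.97 FPKM against 8.49 and 7.75. Pmaip1 and Bid were higher in that mouse and Bcl2l11 was lower. Its larger share is therefore not read as a stronger rise. Pmaip1, Bid and Bcl2l11 were chosen because they rose, and Pmaip1 and Bcl2l11 entered the test through CSA alone. These shares are thus a description of genes already named and not a separate result.

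Of the pore-forming genes, Bak1 passed with 12 libraries. Bak1 (ENSMUSG00000057789, chromosome 17, 27019810 to 27029009) measured 9.15, 8.57 and 11.8 FPKM in CFS, 9.77, 11.0 and 9.97 in CSS, 12.1, 12.8 and 9.80 in CFA, and 24.0, 23.7 and 11.5 in CSA. CSA mice 01 and 02 had levels well above those of all other mice, and mouse 03 lay within the CFA range. Ggnbp1 shares 25.5% of its exonic bases. The rise was 0.70 on the log2 scale (standard error 0.26, limma adjusted p = 0.0492, and 4.37e-05 to 0.156 over its alternatives), and it no longer passed in 9 of 16 alternatives, among them those that leave out CFA mouse 71, 72 or 74 or CSA mouse 01 or 02. Without mouse 03 it was 1.04 (adjusted p = 0.000293 from limma).

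Bax and Bok showed the same split more strongly. Bax, which shares 12.2% of its exonic bases with Gm45808, measured 17.5, 24.8 and 13.8 FPKM in CFA and 36.1, 37.5 and 10.2 in CSA, and Bok measured 9.36, 10.2 and 5.69 FPKM in CFA and 15.8, 19.1 and 3.23 in CSA. In each gene 2 CSA mice lay above the CFA range and mouse 03 below it. With 12 libraries the log2 fold changes were 0.40 for Bax (limma adjusted p = 0.478) and 0.28 for Bok (limma adjusted p = 0.699). Without mouse 03 they were 1.01 (limma adjusted p = 0.00257) and 1.08 (limma adjusted p = 0.00278), and with GC content adjusted 0.82 and 0.87. The ratio of Bax to Bcl2 FPKM, often used to describe the balance of death and survival, ran from 1.74 to 2.39 in CFS, from 2.58 to 3.25 in CSS and from 2.41 to 4.18 in CFA. It was 13.7 and 16.0 in CSA mice 01 and 02 and 3.61 in mouse 03, within the CFA range.

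Downstream of the pores, Apaf1 rose and Endog pointed the other way. Apaf1, the scaffold of the apoptosome, rose from 3.74 ± 0.611 to 7.70 ± 1.10 FPKM (SD, n = 3 each, log2 fold change 1.03, limma adjusted p = 0.000306). Endog (ENSMUSG00000015337, chromosome 2, 30171493 to 30174069), a mitochondrial nuclease, measured 11.8, 11.6 and 11.9 FPKM in CFS, 12.1, 8.93 and 10.5 in CSS, 9.46, 9.09 and 7.94 in CFA, and 5.56, 6.87 and 1.10 in CSA. All CSA mice were below all other mice, with mouse 03 lowest by far. Its log2 fold change was -1.30 (limma adjusted p = 0.0612) with 12 libraries and -0.50 (limma adjusted p = 0.0132) without mouse 03, and 35.7% of its exonic bases are shared with Spout1. Cycs, the gene of cytochrome c, averaged 10.5 ± 1.12 FPKM under CFA and 14.5 ± 2.36 under CSA (SD, n = 3 each, limma adjusted p = 0.065), and Diablo, whose product relieves IAP inhibition, measured 1.12 ± 0.189 and 1.04 ± 0.0511 (limma adjusted p = 0.786), with 40.9% of its exonic bases shared with AC157931.1, B3gnt4 and Gm49027.

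Of the genes of the death receptor complex, Ripk1 passed with 12 libraries and the adaptors Fadd and Tradd did not. Ripk1, the kinase at the fork between survival, apoptosis and necroptosis, measured 5.18, 5.29 and 5.23 FPKM in CFA and 6.75, 6.47 and 9.96 in CSA, after 5.66 to 5.85 in CFS and 5.00 to 5.65 in CSS. Its CSA values were above those of every other mouse, and it rose by 0.53 on the log2 scale (standard error 0.15, limma adjusted p = 0.0182, 0.0532 without CFA mouse 71, 0.108 with only the groups compared and 0.15 under limma's treat). The rise was 0.33 without CSA mouse 03. Fadd averaged 3.37 ± 0.347 FPKM under CFA and 3.20 ± 0.294 under CSA (SD, n = 3 each, limma adjusted p = 0.75). Tradd measured 6.52, 6.09 and 6.27 FPKM in CFA and 10.2, 11.2 and 3.53 in CSA, again with mouse 03 on the other side of the CFA range, and rose only without it (log2 fold change 0.75, limma adjusted p = 0.000227, against 0.23 and 0.618 with 12 libraries) or with GC content adjusted or array weights.

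The necroptosis pair rose in all 3 CSA mice. Ripk3 (ENSMUSG00000022221, chromosome 14, 55784995 to 55788865) measured 1.58, 0.770 and 1.39 FPKM in CFS, 1.39, 1.53 and 1.66 in CSS, 1.86, 3.21 and 1.42 in CFA, and 13.6, 12.9 and 7.89 in CSA. The lowest CSA mouse, at 7.89, was well above the highest CFA mouse, at 3.21. The rise was 2.39 on the log2 scale (standard error 0.33, limma adjusted p = 0.000204) and 2.64 without mouse 03. Mlkl (ENSMUSG00000012519, chromosome 8, 111311797 to 111338177), which encodes the membrane-disrupting effector, measured 2.68, 2.58 and 3.85 FPKM in CFS, 3.50, 3.37 and 3.05 in CSS, 3.45, 5.07 and 3.85 in CFA, and 12.9, 11.1 and 15.8 in CSA. Again the CSA values did not overlap with the others. Mlkl rose by 1.67 (standard error 0.20, limma adjusted p = 7.44e-05), just beyond the fold limit, and by 1.53 without mouse 03. With a pseudocount of 1 it rose by 1.48, short of that limit, and 8 members rather than 9 passed both thresholds.

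**Figure D4:**
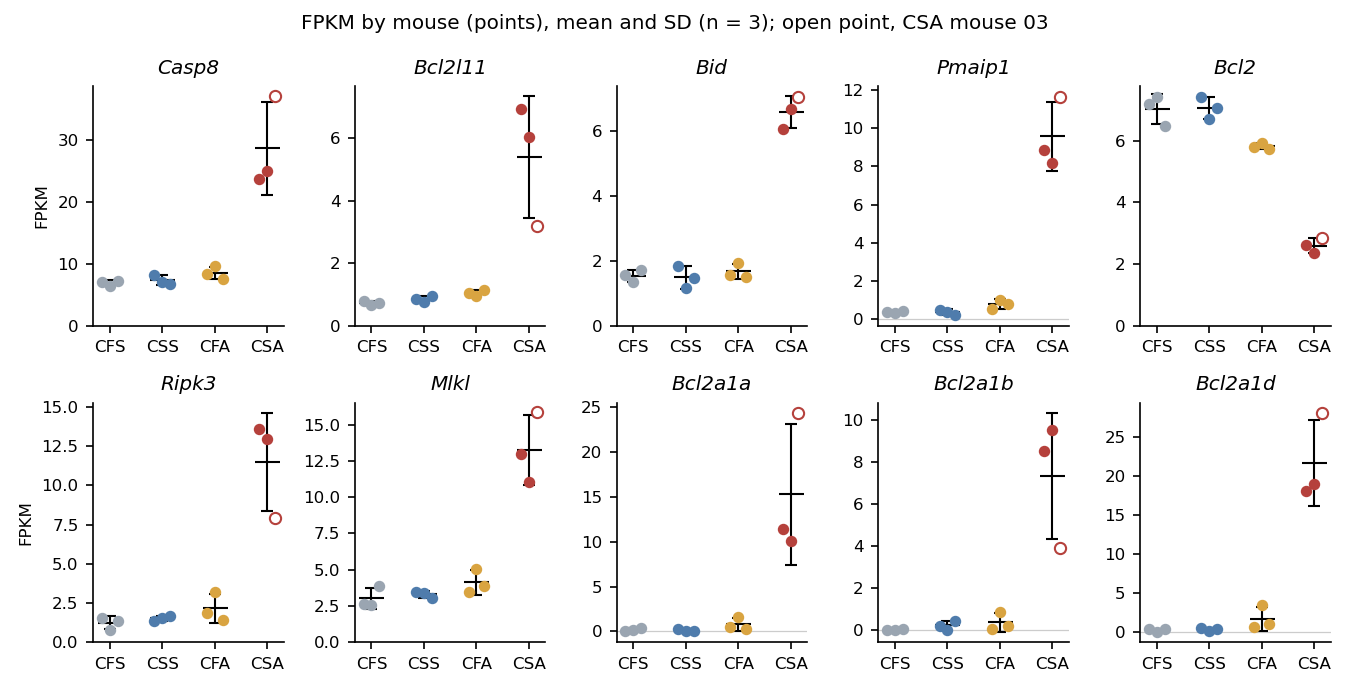
FPKM of 10 members (vertical axes, each with its own scale) by group (horizontal axis), 1 point per mouse with the mean and SD of 3 mice, and CSA mouse 03 as an open point. In 9 panels the CSA mice lie above all other mice, and in the Bcl2 panel they lie below them.

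The largest differences among the members were those of the Bcl2a1 genes, a set of mouse copies that encode A1, a survival protein of the Bcl-2 family best known in neutrophils, macrophages and activated lymphocytes. The copies are close to identical, so reads can be divided among them or left out by the counting. The annotated transcripts of Bcl2a1a and Bcl2a1b differ at 15 of 817 aligned bases (98.2% identity), those of Bcl2a1a and Bcl2a1d at 10 of 819 (98.8%) and those of Bcl2a1b and Bcl2a1d at 7 of 817 (99.1%). Of all stretches of 150 bases, the read length, 28.2% in Bcl2a1a, 14.2% in Bcl2a1b and 30.3% in Bcl2a1d also occur in another copy. Bcl2a1b shares 49.1% of its exonic bases with Gm29094 as well.

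The promoters of the copies are also nearly alike, and they are shown because the copies moved together. The 80 bases below lie upstream of the RefSeq start of each gene (the last bases of the Bcl2a1d window fall inside its longer GENCODE model), read 5′ to 3′ on the strand of the gene from RefSeq promoters of GRCm38.p6. Capitals mark GAGGAAGT, the letters of a site bound by PU.1, the transcription factor of myeloid cells.
Bcl2a1a, chr9:88956780-88956859 (+): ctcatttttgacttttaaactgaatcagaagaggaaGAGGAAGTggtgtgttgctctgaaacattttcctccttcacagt
Bcl2a1b, chr9:89199089-89199168 (+): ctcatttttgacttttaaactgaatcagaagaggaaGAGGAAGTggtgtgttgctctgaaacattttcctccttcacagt
Bcl2a1d, chr9:88731911-88731990 (-): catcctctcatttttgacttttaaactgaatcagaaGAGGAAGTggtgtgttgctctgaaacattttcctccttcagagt

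The motifs were searched on both strands of the promoters, each of 250 bases before to 50 after the start, after the members' values were known. GAGGAAGT occurred in 3.20% of 32851 promoters. The 33 members with a promoter have 46 promoters, of which 5 held it, those of Bad, Bak1, Bcl2a1a, Bcl2a1b and Bcl2a1d. The Bcl2a1 promoters are nearly alike, so theirs are not separate matches. An interferon-stimulated response element, searched as GAAA, any 2 bases and GAAA, occurred in 3.44% of promoters and in the members Cflar and Ripk1. A form of the kappaB site, searched as GGGA, any 2 bases and TTCC, occurred in 1.47% and in the member Trp53. These matches describe letters in a window and are not evidence of binding. Bik, Tradd and Pmaip1 were not matched.

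Bcl2a1a (ENSMUSG00000102037, chromosome 9, 88956900 to 88962419) measured 0, 0.196 and 0.354 FPKM in CFS, 0.329, 0.0659 and 0.0561 in CSS, 0.504, 1.61 and 0.288 in CFA, and 11.4, 10.1 and 24.3 in CSA. The saline values rest on 0 to 5 fragments per mouse, and a value of 0 allows up to 3 fragments. Bcl2a1b (ENSMUSG00000089929, chromosome 9, 89199209 to 89207827) measured 0, 0 and 0.0710 FPKM in CFS, 0.198, 0 and 0.450 in CSS, 0.0562, 0.865 and 0.173 in CFA, and 8.56, 9.52 and 3.91 in CSA. In CFA it rests on 1, 15 and 3 fragments. Bcl2a1d (ENSMUSG00000099974, chromosome 9, 88723285 to 88731914) measured 0.313, 0 and 0.269 FPKM in CFS, 0.436, 0.0625 and 0.266 in CSS, 0.532, 3.39 and 0.929 in CFA, and 18.0, 19.0 and 28.1 in CSA.

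All 3 copies were higher in each CSA mouse than in every other mouse. The log2 fold changes from CFA to CSA were 4.27 for Bcl2a1a (standard error 0.71, limma adjusted p = 0.000635), 4.33 for Bcl2a1b (0.77, limma adjusted p = 0.00104) and 4.02 for Bcl2a1d (0.71, limma adjusted p = 0.000976). Their size depends on the pseudocount and the libraries, from 3.14 to 4.88, from 2.58 to 5.30 and from 3.24 to 4.73 in that order over the alternatives. CSA mouse 03 was higher than its group mates in Bcl2a1a and lower in Bcl2a1b, although the copies have a like GC content of 44.2% and 44.1%. Summed over the copies, so that a read given to any of them counts, FPKM was 1.09 to 5.86 in CFA and 38.0 to 56.3 in CSA. If reads that match several copies were left uncounted, the sum does not restore them.

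Bcl2 (ENSMUSG00000057329, chromosome 1, 106538178 to 106714274), the founding survival gene of the family, was the 1 member that fell by adjusted p between CSA and CFA with 12 libraries. It measured 7.20, 7.40 and 6.46 FPKM in CFS, 7.42, 6.70 and 7.06 in CSS, 5.78, 5.93 and 5.74 in CFA, and 2.63, 2.35 and 2.84 in CSA. The CSA mice formed a tight group below all others, mouse 03 included. The log2 fold change was -1.13 (standard error 0.11, limma adjusted p = 2.14e-05, and 4.5e-07 to 0.00329 over its alternatives), short of the fold limit. Its fall went with the fall of the smooth muscle markers given above, and the part of those cells in it was not tested.

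Mcl1 (ENSMUSG00000038612, chromosome 3, 95658788 to 95663176), which encodes a short-lived survival protein and the target of NOXA, was the most abundant member. It measured 88.2, 104 and 82.4 FPKM in CFS, 93.1, 107 and 98.4 in CSS, 94.2, 104 and 93.0 in CFA, and 151, 153 and 244 in CSA. All CSA values lay above the other 9, and the log2 fold change was 0.87 (standard error 0.18, limma adjusted p = 0.00287) and 0.65 without mouse 03. Mcl1 made up 72.5% to 82.4% of the summed FPKM of the 6 Bcl-2-like survival members in each of the 12 mice. Bcl2l1, the gene of BCL-XL, ranged from 13.3 to 17.3 FPKM in CFA and from 11.1 to 17.2 in CSA (limma adjusted p = 0.628), and its log2 fold change of -0.13 turned to 0.03 without mouse 03.

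The inhibitor of apoptosis genes rose in part. Birc3, which encodes the ubiquitin ligase cIAP2 of the TNF receptor complex, measured 6.67, 7.88 and 8.13 FPKM in CFA and 14.3, 12.6 and 19.7 in CSA, after 7.27 to 8.82 in CFS and 6.47 to 7.53 in CSS. Each CSA value lay above those of the other 9 mice, and it rose by 1.01 on the log2 scale (standard error 0.17, limma adjusted p = 0.000709). Birc2, its neighbour on chromosome 9 and the gene of cIAP1, rose from 11.6 ± 1.38 to 17.8 ± 4.44 FPKM (SD, n = 3 each, log2 fold change 0.59, limma adjusted p = 0.0144, 0.055 without CFA mouse 71, 0.0904 with only the groups compared and 0.104 under treat). Xiap, the direct caspase inhibitor, measured 12.7 ± 0.399 and 12.8 ± 2.88 FPKM (SD, n = 3 each, limma adjusted p = 0.944). Cflar, which encodes the caspase-8 inhibitor c-FLIP, measured 18.3, 20.5 and 16.9 FPKM in CFA and 13.4, 13.3 and 19.1 in CSA. CSA mice 01 and 02 were below the CFA range and mouse 03 was inside it, and Cflar did not pass with 12 libraries (log2 fold change -0.30, limma adjusted p = 0.131) but fell without mouse 03 (-0.47, limma adjusted p = 0.00218).

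In the p53 axis, Trp53 averaged 11.9 ± 0.954 FPKM under CFA and 14.0 ± 3.43 under CSA (SD, n = 3 each, log2 fold change 0.21, limma adjusted p = 0.367). Without mouse 03 it was 0.43 (limma adjusted p = 0.00854), and with GC content adjusted 0.34 (limma adjusted p = 0.0154). Cdkn1a, the p53 target that encodes the cell cycle inhibitor p21, measured 30.5, 31.3 and 36.9 FPKM in CFS, 27.0, 31.8 and 19.7 in CSS, 17.9, 23.0 and 17.3 in CFA, and 30.7, 28.2 and 21.6 in CSA. The CSA values overlapped with those of CFA through mouse 03 and CFA mouse 72. The log2 fold change of Cdkn1a was 0.46 (standard error 0.20, limma adjusted p = 0.0906) with 12 libraries and 0.61 (limma adjusted p = 0.026) without mouse 03.

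Counted without a model, 17 members had all CSA mice above all CFA mice, against 23.4% of all tested genes, 3 had them all below, against 25.1%, and 16 overlapped. The 3 lower members were Bcl2, Bik and Endog.

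Under saline no member passed the test between genotypes. Between CSS and CFS, 0 of the 36 members passed limma's adjusted p in either direction, and 0 did at an unadjusted p under 0.05. Of all tested genes 0.00681% rose and 0.00681% fell past both thresholds, 0.00681% and 0.0136% by adjusted p alone, and 924 had an unadjusted p under 0.05. With GC content adjusted 4 members (Apaf1, Bbc3, Tradd and Trp53) were higher at an unadjusted p under 0.05, among 1255 genes, and 0 passed the adjusted p, against 0.00694% of genes in each direction by adjusted p alone and 0.00694% up and 0.0% down past both thresholds. The member with the largest difference among those above 1 FPKM in all saline mice was Bbc3, which measured 2.73, 2.77 and 3.82 FPKM in CFS and 8.49, 5.44 and 4.95 in CSS without overlap (log2 fold change 0.97, standard error 0.46, limma adjusted p = 0.805). Bax measured 12.5, 16.3 and 15.5 FPKM in CFS and 19.1, 21.8 and 21.2 in CSS, also without overlap (log2 fold change 0.49, limma adjusted p = 1). In all, 6 members had every CSS mouse above every CFS mouse, against 11.1% of tested genes, and 1 had them below, against 9.31%.

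Ang II in floxed control mice was likewise not followed by a member passing the adjusted p. Between CFA and CFS, 0 members rose and 0 fell by limma's adjusted p, against 0.0204% of tested genes up and 0.00681% down past both thresholds and 0.0273% and 0.00681% by adjusted p alone. At an unadjusted p under 0.05, 4 members were higher (Apaf1, Pmaip1, Bcl2a1a and Bcl2a1d) and 2 were lower (Bcl2 and Cdkn1a), among 1383 of all tested genes. With GC content adjusted 12 members were higher and 3 lower at an unadjusted p under 0.05, among 1846 of 14407 genes, and 0 passed the adjusted p, against 0.0694% of genes up and 0.0139% down past both thresholds and 0.104% and 0.0278% by adjusted p alone. Apaf1 had the values 2.64, 2.47 and 2.34 FPKM in CFS and 3.15, 4.37 and 3.70 in CFA without overlap (log2 fold change 0.56, limma adjusted p = 0.211). Cdkn1a, whose values are given above, was lower in every CFA mouse than in every CFS mouse (log2 fold change -0.76, limma adjusted p = 0.195, and 0.0358 to 0.534 over its alternatives). It was the 1 member that passed with array weights. Counted without a model, 10 members had every CFA mouse above every CFS mouse, against 9.44% of tested genes. Another 4 had them all below, against 10.8%, and 22 overlapped.

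Ang II in CCN2SMCΔ mice was followed by broad differences. Between CSA and CSS, 9 members rose past both thresholds (10.9% of tested genes did) and 1 fell (9.36% did). By adjusted p alone 17 rose (22.3%) and 3 fell (23.9%), the 3 being Bcl2, Bik and Endog. The 5 members that entered the test through CSA alone are among those that rose, and of the other 31 members 4 rose and 1 fell past both thresholds (5.83% and 10.2% of genes that entered without CSA did) and 12 rose and 3 fell by adjusted p (17.7% and 26% did). This comparison shares the CSA libraries with that of CSA and CFA, so each is given by its own values and no overlap is read from them. Without CSA mouse 03, 22 members rose (26.0% of tested genes did) and 2 fell (27.5% did), with 9 and 0 past both thresholds (11.2% and 8.21% of tested genes). With GC content adjusted, 23 rose (27.2%) and 3 fell (25.1%), with 9 and 0 past both thresholds (11.5% and 8.04%). Among those that rose, the call of Bak1 was lost without CSA mouse 01 or 02 or CSS mouse 54, that of Ripk1 without CSS mouse 54 or 56, and that of Birc2 without CSS mouse 56, with limma adjusted p from 0.0516 (Bak1) to 0.0807 (Ripk1). These 3 calls were also lost with only the groups compared (0.0635 for Bak1, 0.106 for Ripk1 and 0.0655 for Birc2 by limma adjusted p) and under limma's treat (0.0552, 0.184 and 0.111).

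The log2 fold changes from CSS to CSA of the named genes were 1.92 for Casp8, 4.42 for Pmaip1, 2.46 for Bcl2l11, 2.09 for Bid, 2.79 for Ripk3 and 1.96 for Mlkl, with limma adjusted p from 1.82e-06 (Pmaip1) to 5.16e-05 (Ripk3). Those of the Bcl2a1 copies were 5.99 for Bcl2a1a, 4.77 for Bcl2a1b and 6.07 for Bcl2a1d, on the low saline fragment numbers given above. Bcl2 fell by 1.41 on the log2 scale (standard error 0.11, limma adjusted p = 3.71e-06). Endog fell by 1.54 (standard error 0.50, limma adjusted p = 0.0272), a value that rests on mouse 03 for its size, being -0.75 without it (limma adjusted p = 0.00126), and whose call was lost without CSS mouse 54 (0.0815) or 56 (0.0652) and with only the groups compared (0.112). Bik fell by 1.07 (limma adjusted p = 0.028), and its log2 fold change was -0.64 without CSA mouse 03, where the call was lost (limma adjusted p = 0.0622). The call was also lost without CSS mouse 54 (0.0953) or 56 (0.0792), with no filter (0.0506), with only the groups compared (0.0788) and under treat (0.0634).

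Whether the genotype effect differed between treatments was tested with an interaction term, the difference between CSA and CFA less that between CSS and CFS. By adjusted p 12 members had a greater genotype effect under Ang II (12.8% of tested genes did) and 1 a lower (13.7% did), and 9 and 0 passed both thresholds (7.89% and 7.31% of tested genes did). Among them are the 5 members that entered the test through CSA alone. Of the other 31 members, 7 were higher and 1 lower by adjusted p (9.63% and 14.9% of genes that entered without CSA were). Past both thresholds 4 (Bid, Casp8, Mlkl and Ripk3) were higher (4.44% were). Without CSA mouse 03, 13 of the 31 were higher and 2 lower by adjusted p (14.1% and 20.8% of such genes). Past both thresholds 2 were then higher, Bid and Ripk3 (4.64%). With GC content adjusted, 14 were higher and 1 lower (14.2% and 17.7%). Past both thresholds 3 were then higher, Bid, Casp8 and Ripk3 (4.94%). At an unadjusted p under 0.05 with 12 libraries, 18 members were higher and 2 (Bcl2 and Bik) lower, among 5534 of all tested genes. Death members gave 8 of the 12, which were Apaf1, Bcl2l11, Bid, Casp6, Casp8, Mlkl, Pmaip1 and Ripk3, and survival members gave the Bcl2a1 copies and Birc3, with Bcl2 lower. Without CSA mouse 03, 18 members were higher (16.9%) and 2 lower (19.1%), with 7 and 0 past both thresholds (8.13% and 6.87%). With GC content adjusted, 18 were higher (17.3%) and 1 lower (16.3%), with 7 and 0 past both thresholds (8.52% and 6.59%).

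By adjusted p the 4 members with the smallest values were Pmaip1, Bid, Bcl2 and Casp8. Of these Pmaip1 entered the test through CSA alone, as did Bcl2a1b below, so that its inclusion already required a difference. The interaction was 3.57 in Pmaip1 on the log2 scale (standard error 0.45, limma adjusted p = 0.000301), 1.97 in Bid (standard error 0.27, limma adjusted p = 0.000474) and -1.14 in Bcl2 (standard error 0.16, limma adjusted p = 0.000545). In Casp8 it was 1.62 (standard error 0.25, limma adjusted p = 0.00083), and 1.42 without CSA mouse 03, under the fold limit. That of Bcl2a1b was 3.24 (standard error 1.09, limma adjusted p = 0.0492) and did not hold in 12 of 20 alternatives, 9 of which leave out 1 of CFA mice 71 and 74, CFS mice 68, 69 and 70, CSA mice 01 and 02 and CSS mice 54 and 55. That of Casp6 (0.81, limma adjusted p = 0.0295) did not hold in 10 of 20, 8 of which leave out 1 of CFA mice 71, 72 and 74, CFS mice 68 and 70, CSA mouse 02 and CSS mice 54 and 55.

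**Figure D5:**
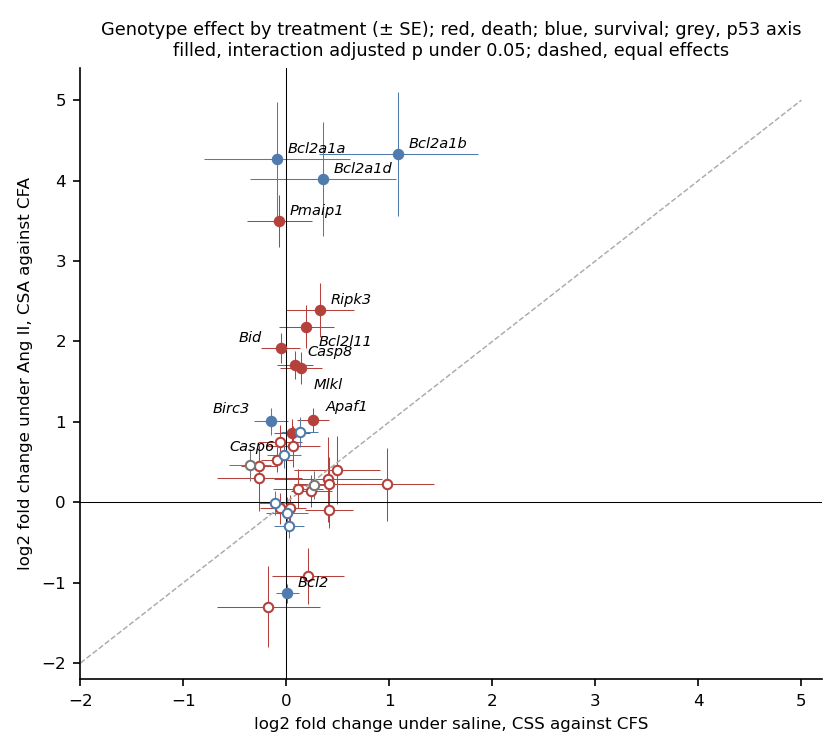
Log2 fold change with genotype under saline (horizontal axis, CSS against CFS) and under Ang II (vertical axis, CSA against CFA) of the 36 members with standard errors, filled where the interaction passed an adjusted p of 0.05 and with a dashed line of equal effects. The filled points of members that rose lie between -0.15 and 0.36 on the horizontal axis, apart from Bcl2a1b at 1.09, and reach 4.33 on the vertical axis.

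The genes around the members were described from 6 further lists of 89 genes, chosen as the members were with earlier results of these data known, and the 3 with the largest change between CSA and CFA are named for each. Their counts are by adjusted p with 12 libraries, where 19.5% of all tested genes rose and 21.2% fell, and nothing is read from a list whose counts are near those shares. Tnf, Ngfr, Zbp1, Naip6, Birc5, Gsdme and Chac1 entered the test only through the CSA libraries, so that their inclusion already required a difference. Of the 13470 genes that entered without the CSA libraries, 15.5% rose. Of 11 tested death receptor and ligand genes, 2 rose and 1 fell by adjusted p, the median being 0.28 on the log2 scale, and without CSA mouse 03 these numbers were 4 and 1 (23.8% and 24.9% of all tested genes). Without Tnf and Ngfr, 1 of 9 rose, beside that 15.5%. Tnf, the ligand itself, rose from 0.352 ± 0.0941 to 4.79 ± 0.975 FPKM (SD, n = 3 each, log2 fold change 3.44, limma adjusted p = 6.42e-05), and Tnfrsf1b, the receptor TNFR2 of leukocytes, rose from 9.45 ± 1.84 to 49.0 ± 15.6 (log2 fold change 2.33, limma adjusted p = 1.8e-05). Tnfrsf12a, the TWEAK receptor, measured 57.4, 94.2 and 30.9 FPKM in CFA and 37.2, 42.1 and 5.84 in CSA with overlap and did not pass (limma adjusted p = 0.109). The gene that fell was Tnfsf12, the ligand of that receptor, named here after its value was seen.

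Of 15 genes of the TNF receptor complex and regulators of necroptosis, 6 rose and 0 fell by limma's adjusted p, 2 of them past both thresholds, with a median of 0.26. Of all tested genes 8.95% rose past both thresholds, and Zbp1 is among the 2. Without Zbp1, 5 of 14 rose, beside 15.5% of the genes that entered the test without CSA. Zbp1, a sensor of nucleic acids that can engage RIPK3, measured 0.702, 2.35 and 0.668 FPKM in CFA and 46.3, 39.2 and 46.1 in CSA. It rose by 5.26 on the log2 scale (standard error 0.43, limma adjusted p = 6.13e-06). Traf1, an adaptor that works with the cIAPs, rose by 2.07 (limma adjusted p = 0.000263), and Tnfaip3, which encodes the ubiquitin-editing enzyme A20, rose by 1.37 (limma adjusted p = 0.000216). Without CSA mouse 03, 10 of the 15 rose and 2 fell, the latter being Cyld and Map3k7, beside 23.8% and 24.9% of all tested genes.

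Of 10 tested genes of other Bcl-2 and IAP relatives, 4 rose and 1 fell, with a median of -0.03. Without Naip6 and Birc5, 2 of 8 rose, beside 15.5% of the genes that entered the test without CSA. The largest rises were those of Naip6 (log2 fold change 2.73), Naip2 (2.67) and Naip5 (2.40), with limma adjusted p from 2.03e-05 (Naip2) to 0.000374 (Naip6). Although named after an inhibitor of apoptosis, these genes encode inflammasome sensors of bacterial proteins. They are neighbours on chromosome 13. How alike their transcripts are was not measured, so the values of each may be uncertain. The remaining gene that rose was Birc5, a gene of dividing cells, named after its value was seen.

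Of 16 genes of mitochondrial factors and execution, 3 rose and 2 fell, with a median of 0.12. Without Gsdme, 2 of 15 rose, beside 15.5% of the genes that entered the test without CSA. Gsdme, which encodes a pore protein cut by caspases, measured 0.630, 0.688 and 0.322 FPKM in CFA and 1.42, 1.83 and 3.43 in CSA and rose by 1.80 on the log2 scale (limma adjusted p = 0.00276). Rock1, a kinase that drives membrane blebbing, measured 46.8, 71.3 and 46.8 FPKM in CFA and 13.5, 14.3 and 32.5 in CSA and fell (log2 fold change -1.54, limma adjusted p = 0.00203), and Xkr8, a phospholipid scramblase, did not pass (log2 fold change -1.24, limma adjusted p = 0.0606). Xkr8 measured 1.79, 2.22 and 0.363 FPKM in CSA, so the size rests on mouse 03, without which it fell by 0.51 (limma adjusted p = 0.0454), and it fell by 1.14 with GC content adjusted (limma adjusted p = 0.0385).

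Of 18 p53 targets, 5 rose and 4 fell, with a median of 0.31. Perp, a membrane protein of desmosomes and an effector of p53, measured 22.6, 20.2 and 23.9 FPKM in CFA and 3.46, 3.65 and 2.84 in CSA and fell by 2.71 on the log2 scale (standard error 0.17, limma adjusted p = 1.19e-06). Plk2 (log2 fold change 1.82, limma adjusted p = 0.000417) and the growth arrest gene Gadd45a (1.77, limma adjusted p = 4.51e-05) rose.

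Of 12 genes of endoplasmic reticulum stress, 1 rose and 1 fell, with a median of 0.05. Xbp1, a transcription factor of the unfolded protein response, rose from 37.5 ± 6.85 to 60.9 ± 4.73 FPKM (SD, n = 3 each, log2 fold change 0.71, limma adjusted p = 0.00168). Ppp1r15a, which encodes a phosphatase subunit that restores translation, fell by 0.80 (limma adjusted p = 0.037), a call lost in 8 alternatives with limma adjusted p from 0.0564 (a common FPKM total) to 0.118 (without CFA mouse 74). Among them the log2 fold change was -0.47 without CSA mouse 03 and -0.39 with array weights, and the others were no filter, only the groups compared, treat and leaving out CFA mouse 72. Atf3, a stress-induced transcription factor, measured 22.0 ± 4.78 and 11.3 ± 1.95 FPKM (SD, n = 3 each) and did not pass (log2 fold change -0.95, limma adjusted p = 0.387).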

How the data were processed

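Abdominal aorta RNA of 12 mice was poly(A)-selected and sequenced in paired 150-base reads. The authors deposited FPKM per gene and mouse, without pooling, and 0 sample columns were left unused. The submitters' processing notes name HISAT2 2.0.5, StringTie 1.3.3b, featureCounts 1.5.0-p3 and mm10. The study called genes with DEG-Seq, which needs counts, and the deposited values are FPKM. Here limma 3.58.1 in R 4.3.3 was used on log2(FPKM + 0.1), with 1 coefficient per group and eBayes with trend and robust settings. Benjamini-Hochberg adjustment ran over the 14676 genes that reached 1 FPKM in 3 or more libraries. Fragments recovered from FPKM served to give depths and fragment numbers, and no count model was fitted to them. Calls needed an adjusted p under 0.05, with or without a log2 fold change beyond 1.5.

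Symbols, exon lengths, GC content and coordinates came from GENCODE M21 (GRCm38), which matched 54495 of 54532 Ensembl identifiers, and 560 features had none. With those lengths, 97.8% to 98.4% of values under 100 fragments came out whole within 0.02, which gave depths of 14558580 to 23107811 fragments. Limits of 3 fragments for a 0 cover counting error only.

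The members and all gene lists were chosen with earlier results of these data known. Values in every library are given for members past both thresholds in a comparison with CSA or in the interaction and for the member with the largest change between CSA and CFA in each role, and for some others chosen after their values were seen. The 3 genes with the largest change are named of each other list. Alternatives were a pseudocount of 1, no filter, a filter at a mean FPKM of 5, scaling by medians of ratios, a common FPKM total, plain eBayes, array weights, no fold limit, limma's treat at 1.2-fold, only the groups compared, leaving out each of the 12 mice, and, after seeing the data, a loess adjustment for GC content (span 0.3). In a test on simulated data for CSA and CFA with 13290 genes, 183 of 200 genes changed 4-fold were recovered and 6 unchanged genes were called. The simulated noise was independent between genes, and genes of low FPKM were not among those changed. A deviation shared by many genes, such as that of CSA mouse 03 with GC content, was not simulated, so these numbers do not cover it.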

Additional observations from a re-analysis of the deposited data

Results flagged for a closer look

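In 13 members the genotype effect under Ang II differed from that under saline by the limma interaction term at an adjusted p under 0.05. It was greater in 12 (12.8% of all tested genes) and lower in 1 (13.7%). Bcl2l11, Pmaip1 and the 3 Bcl2a1 genes entered the test through CSA alone, so that their inclusion already required a difference. Of the other 31 members, 7 were higher and 1 lower (9.63% and 14.9% of genes that entered without CSA). The difference on the log2 scale was greater under Ang II by 4.36 for Bcl2a1a, 3.67 for Bcl2a1d, 3.57 for Pmaip1, 3.24 for Bcl2a1b, 2.07 for Ripk3, 1.99 for Bcl2l11, 1.97 for Bid, 1.62 for Casp8 and 1.52 for Mlkl. Smaller differences in the same direction were those of Birc3 (1.16), Casp6 (0.81) and Apaf1 (0.77). Bcl2 differed in the opposite direction, by -1.14. Of these 13, the calls of Bcl2a1b, Casp6, Apaf1 and Bcl2a1d did not hold under some alternatives, 12, 10, 4 and 2 of them in that order, and the other 9 held under each alternative run. The calls of Bcl2a1d were lost without CFA mouse 71 (limma adjusted p = 0.0501) and without CFS mouse 68 (0.0509), and those of Apaf1 without CFA mouse 71 (0.0585), CFS mouse 68 (0.056) or CSS mouse 54 (0.0574) and under treat (0.0825). Single outlying values within a group of 3 mice were not tested, and CSA mouse 03 is described in the report by its base composition.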

How the results depend on the processing

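No paired analysis was possible because the groups share no mouse numbers. The count of 9 members that rose between CSA and CFA stayed at 9 when any mouse was left out. It was 17 with no fold limit and 3 with a mean FPKM of at least 5, which tests fewer genes. Those that fell numbered 1 with no fold limit or treat, and 0 to 1 with a mouse left out (1 without CSA mouse 01 or 02). By adjusted p alone 8 rose with a mean FPKM of at least 5 and 13 (without CFA mouse 71) to 24 (without CSA mouse 03) with a mouse left out. The share of all tested genes that rose moved as well, from 19.5% with 12 libraries to 23.8% without CSA mouse 03. Such shares are not given here for each alternative, so the counts in this paragraph show only how calls depend on the processing. Those that fell numbered 3 with GC content adjusted, 4 with array weights, 2 with a pseudocount of 1 and 1 to 3 with a mouse left out (2 without CFA mouse 74, 3 without any CSA mouse). Between CSA and CSS the 9 that rose became 17 with no fold limit, 3 with a mean FPKM of at least 5 and 14 with treat, and stayed 9 with any mouse left out. The 1 that fell became 0 with GC content adjusted, array weights, only the groups compared or a pseudocount of 1, 3 with no fold limit, 2 with treat and 0 to 1 with a mouse left out (0 without CSA mouse 03, CSS mouse 54 or CSS mouse 56). By adjusted p alone 8 rose with a mean FPKM of at least 5 and 15 to 22 with a mouse left out, and 1 fell with only the groups compared and 1 to 3 with a mouse left out (1 without CSS mouse 54 or 56). In the interaction the higher numbered 3 with a mean FPKM of at least 5 and 6 (without CFA mouse 71) to 9 with a mouse left out, and the lower 1 with no fold limit or treat and 0 with any mouse left out. By adjusted p alone the higher numbered 19 with array weights, 4 with a mean FPKM of at least 5 and 8 (without CFA mouse 71) to 18 (without CSA mouse 03) with a mouse left out, and the lower 2 with array weights and 1 to 2 with a mouse left out (2 without CSA mouse 03). Between CFA and CFS 1 member fell with array weights, and this comparison and that of CSS and CFS stayed at 0 with any mouse left out. The targeted gene ranged from -1.71 to -1.23 under Ang II and from -0.70 to -0.09 under saline with a mouse left out.

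Members whose change between CSA and CFA turned sign were all short of the threshold with 12 libraries. With a mouse left out, log2 fold changes ran from -0.033 to 0.32 for Casp9, -0.25 to 0.057 for Casp12, -0.18 to 1.08 for Bok, -0.049 to 0.52 for Bad, -0.040 to 0.80 for Bmf, -0.14 to 0.88 for Bbc3, -0.21 to 0.016 for Diablo, -0.13 to 0.0086 for Fadd, -0.066 to 0.75 for Tradd, -0.28 to 0.032 for Bcl2l1 and -0.19 to 0.10 for Xiap. With a common FPKM total Casp12 was 0.0038, Fadd 0.0074 and Xiap 0.065, and with array weights Fadd was 0.034 and Bcl2l1 0.16. The cause was not tested. Where 1 mouse is left out, the variance is shared with the other groups. Low saline FPKM of the Bcl2a1 genes, on 0 to 8 fragments per mouse, limits their fold changes.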

Other observations

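Within the CFA group, mouse 72 had the highest FPKM of 8 of the 9 members that rose past both thresholds between CSA and CFA, the exception being Bcl2l11, and of 22 of all 36 members. Casp8 measured 9.64 FPKM in that mouse against 8.35 and 7.61 in the others, Ripk3 3.21 against 1.86 and 1.42, and Bcl2a1d 3.39 against 0.532 and 0.929. Mouse 72 also had the highest summed FPKM in CFA of the macrophage markers (708 against 368 and 333), the neutrophil markers (28.0 against 22.1 and 11.1), the T cell markers (2.69 against 1.12 and 1.06) and the markers of dividing cells (28.7 against 16.0 and 4.03). Its summed smooth muscle markers were also the highest in CFA (8323 FPKM against 7576 and 5466). These are values of 1 mouse of 3, noticed after the data were seen, and no test was made. No share over all tested genes is given beside these counts, so nothing particular to the members is read from them.

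FPKM from genes encoded in mitochondrial DNA made up 4.82% and 4.62% of all FPKM in CSA mice 01 and 02 and 9.94% in mouse 03, beside 11.2% to 12.9% in CFA, 12.6% to 14.6% in CFS and 8.30% to 8.99% in CSS. In CSA mouse 03 the share was thus nearer to that of the other groups than in its group mates.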
